A study of Rattus norvegicus with 4 samples.

Results

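The genes described here are the cytosolic translation factors and tRNA synthetases of cultured rat neural stem/progenitor cells (NSPCs). Members were all symbols starting with Eif or Eef, together with 20 named cytosolic tRNA synthetases. They came to 82 of the 16881 symbols in the deposited count tables, and 82 of 82 passed the filter of 10 or more counts in at least 1 library, which left 10516 genes. NSPCs are dividing cells that can become neurons or glia. Cells with a wild-type label were grown on a PUCL@CNT1 platform or on bare PUCL, and each was sampled at 2 stages. In the differentiation groups, cells spent 24 h in stemness-maintaining medium (knockout DMEM/F12 with StemPro neural supplement and antibiotics) and then 1.5 d more in the B-27 Plus neuronal medium. In the maintenance groups, cells were taken after the 24 h. Medium and time in culture therefore changed together and cannot be told apart. Each of the 4 groups was 1 library with no replicate.

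Translation begins when eIF2 carries the initiator tRNA to the small ribosomal subunit and eIF4F brings the capped mRNA to it, with eIF3 as the scaffold. The exchange factor eIF2B recharges eIF2 with GTP, and stress kinases block that step by phosphorylating eIF2 alpha. Aminoacyl-tRNA synthetases load each tRNA with its amino acid, and the eEF1 and eEF2 factors carry loaded tRNAs into the ribosome and move it along the message. In stem cells and neurons, the rate of initiation is a known point of control over growth and differentiation.

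Libraries came from Lexogen's QuantSeq kit, whose reads come from the 3′ ends of mRNAs. They held 6855984 counts on PUCL@CNT1 and 6580894 on PUCL in differentiation medium, and 6035848 on PUCL@CNT1 and 6502918 on PUCL in maintenance medium. The ribosomal RNA entry Rn45s took 4.25% to 6.72% of counts, with lower shares on PUCL@CNT1 in both media. Of the 8 NSPC markers, Msi1 was at 0 in all 4 libraries, and the summed level of the list lay between 6582.5 and 10756.3 CPM (each gene's counts relative to its library's total). The 5 microglial markers were at 0 in every library. Members had mean counts of 33.2 to 14400 per library, with a median of 793, against a median of 150 for all genes tested. Levels below are CPM on TMM-scaled libraries (trimmed mean of M values), which serve to compare 1 gene between libraries and not different genes.

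Across the switch to differentiation medium, 4 members fell and 1 rose. Iars and Kars, which load tRNAs with isoleucine and lysine, Eif2s2, the beta subunit of eIF2, and Eif2ak4 (GCN2), the kinase that senses uncharged tRNA, were lower, while Eif1b, a paralog of the start-codon factor Eif1, was higher. These 5 of 82 members were past an adjusted p of 0.05 in an additive edgeR fit of platform and medium over the 4 libraries, against 2.81% of all genes (1.8% higher and 1.02% lower). At an unadjusted edgeR p under 0.05 there were 17 members (20.7%), against 12.1% of all genes. Members were counted more deeply than most genes. In a fit of genes with a mean of 100 or more counts, 2 of 76 members and 141 of 6204 genes were called. There, 15 of 76 members and 1044 of 6204 genes had an unadjusted edgeR p under 0.05, so the shares lay closer together. Over all 10516 genes, the median fitted log2 fold change was 0, and 49.8% were below 0. For all 82 members the median was -0.06, with 49 below 0. That median rested on single libraries: in fits without the platform term it was 0.04 without PUCL in differentiation medium (all genes -0.04), -0.31 without PUCL@CNT1 in differentiation medium (all genes -0.05) and -0.21 without PUCL in maintenance medium (all genes 0.09), against -0.06 with all 4 libraries. Over all genes, 189 were called higher and 107 lower, so that 63.9% of calls were higher, against 53.3% when libraries were scaled by total counts.

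**Figure D1:**
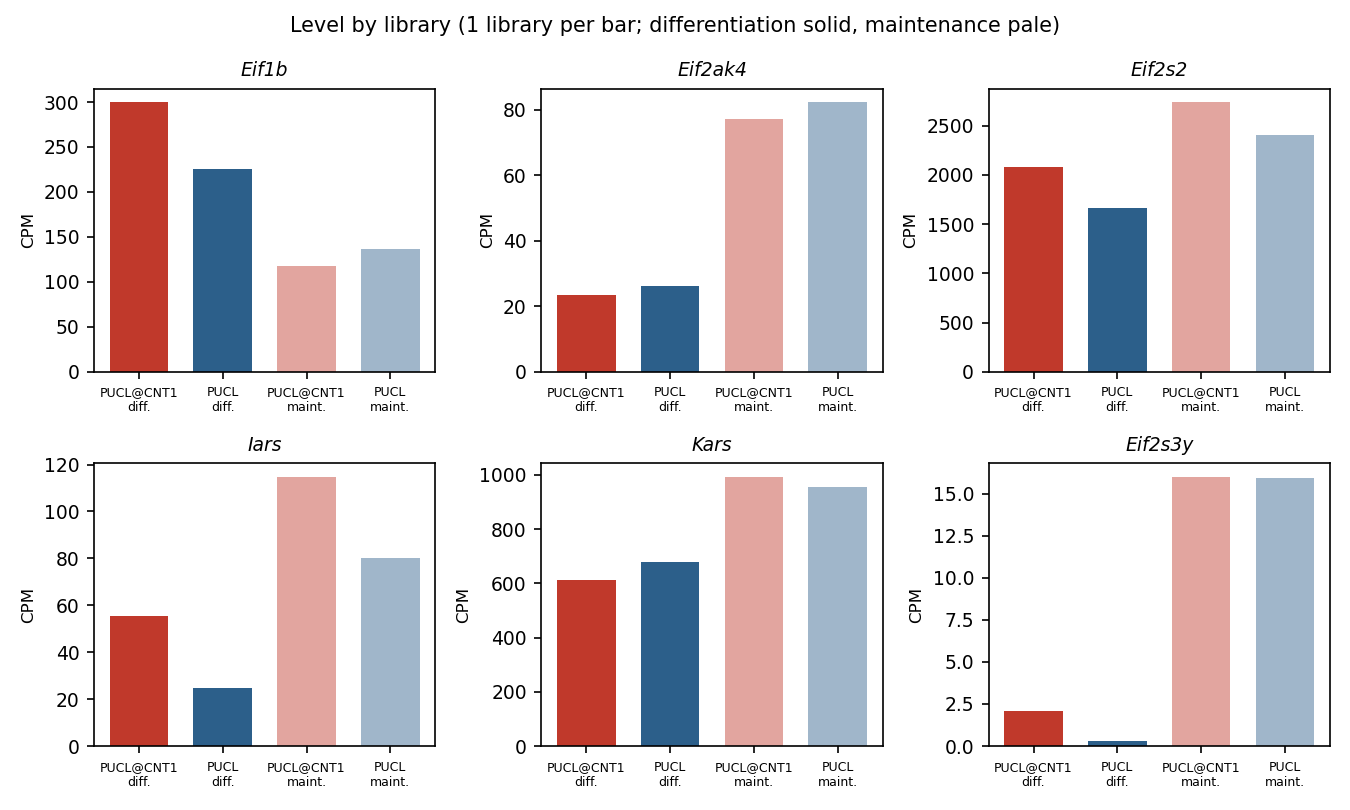
Level of 6 members in each of the 4 libraries, in CPM; each bar is 1 library, solid for differentiation and pale for maintenance medium. Eif1b is higher in both differentiation libraries, and the other 5 genes are lower in both of them.

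Eif2ak4 stood at 23.3 CPM on PUCL@CNT1 and 26.3 CPM on PUCL in differentiation medium, against 77.3 CPM on PUCL@CNT1 and 82.2 CPM on PUCL in maintenance medium. The media did not overlap and the platforms were close in each. The fitted log2 fold change was -1.69 (SE 0.422, edgeR adjusted p = 0.00981), and it was as large on each platform, at -1.73 (95% interval -2 to -1.47) on PUCL@CNT1 and -1.64 (-1.90 to -1.39) on PUCL. These intervals, and all others here, cover counting error only.

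Iars had 55.5 CPM on PUCL@CNT1 and 24.6 CPM on PUCL in differentiation medium, against 114.8 CPM on PUCL@CNT1 and 80.1 CPM on PUCL in maintenance medium. Both differentiation libraries lay below both maintenance libraries, and within each medium PUCL@CNT1 was the higher. The fitted log2 fold change was -1.37 (SE 0.373, edgeR adjusted p = 0.0209). Kars had 612.8 CPM on PUCL@CNT1 and 679.3 CPM on PUCL in differentiation medium, against 992.8 CPM on PUCL@CNT1 and 954.6 CPM on PUCL in maintenance medium. Its fitted log2 fold change was -0.59 (SE 0.175, edgeR adjusted p = 0.0408), and the media did not overlap.

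Eif2s2 had 2078.1 CPM on PUCL@CNT1 and 1661.6 CPM on PUCL in differentiation medium, against 2735.2 CPM on PUCL@CNT1 and 2402.1 CPM on PUCL in maintenance medium. Again the media did not overlap, with a fitted log2 fold change of -0.46 (SE 0.14, edgeR adjusted p = 0.049). Eif1b had 299.5 CPM on PUCL@CNT1 and 226.0 CPM on PUCL in differentiation medium, against 117.3 CPM on PUCL@CNT1 and 136.9 CPM on PUCL in maintenance medium. It was higher in both differentiation libraries, by a fitted log2 fold change of 1.04 (SE 0.256, edgeR adjusted p = 0.00899), and by 1.35 on PUCL@CNT1 and 0.72 on PUCL. Reads of Eif1b and its close paralog Eif1 could have been split or shared in counting.

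With 1 residual degree of freedom these p-values rest mostly on the spread of other genes. DESeq2 called only Eif1b of the 5 (adjusted p = 0.0469), with adjusted p-values of 0.0793 for Eif2ak4, 0.147 for Iars and 0.0523 for each of Kars and Eif2s2. With 1 library left out, the additive fit has no residual degree of freedom, so such fits also leave out the other term, and the 2 changes cannot be told apart in them. With all 4 libraries and no platform term, Eif1b (edgeR adjusted p = 0.0389) and Eif2ak4 (0.0244) were called and Iars (0.0851), Kars (0.261) and Eif2s2 (0.435) were not. In edgeR fits without 1 library and without the platform term, Eif1b and Eif2ak4 were still called without PUCL in differentiation medium (adjusted p = 0.0132 and 0.0318), and Iars without PUCL@CNT1 in differentiation medium (adjusted p = 0.00784). Eif1b lost its call without PUCL@CNT1 in differentiation medium (0.19), PUCL@CNT1 in maintenance medium (0.703) or PUCL in maintenance medium (0.38), all edgeR adjusted p-values. Eif2ak4 lost it without the same libraries, at edgeR adjusted p-values of 0.052, 0.321 and 0.34 in that order. Iars lost it without PUCL in differentiation medium (edgeR adjusted p = 0.428, log2 fold change -0.81), PUCL@CNT1 in maintenance medium (0.891) or PUCL in maintenance medium (0.307). Kars and Eif2s2 were not called without that term and any 1 of the 4 libraries, with edgeR adjusted p-values of 0.199 to 0.948 for Kars and 0.136 to 0.983 for Eif2s2.

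Markers of other cells also differed between the media. The mural cell and fibroblast list of 5, with Rgs5 at 0 in all libraries, summed to 364.3 CPM on PUCL@CNT1 and 500.4 CPM on PUCL in differentiation medium, against 762.6 CPM on PUCL@CNT1 and 1083.7 CPM on PUCL in maintenance medium. The list of 6 oligodendrocyte lineage markers, none at 0 throughout, summed to 1355.1 CPM on PUCL@CNT1 and 1379.2 CPM on PUCL in differentiation medium, against 741.8 CPM on PUCL@CNT1 and 847.3 CPM on PUCL in maintenance medium. The 8 NSPC markers summed to 10756.3 CPM on PUCL@CNT1 and 8197.2 CPM on PUCL in differentiation medium, against 6988.9 CPM on PUCL@CNT1 and 6582.5 CPM on PUCL in maintenance medium. The 5 neuronal markers, led by Map2, summed to 54.5 CPM on PUCL@CNT1 and 79.2 CPM on PUCL in differentiation medium, against 111.4 CPM on PUCL@CNT1 and 106.9 CPM on PUCL in maintenance medium. Map2 and Stmn2 were lower in both differentiation libraries, Tubb3 overlapped between the media, and Dcx lay the other way. Rbfox3 had 0 counts in both differentiation libraries, against only 1 on PUCL@CNT1 and 29 on PUCL in maintenance medium. Dcx had 61 counts on PUCL@CNT1 and 79 on PUCL in differentiation medium, against 39 and 48 in that order in maintenance medium. The 5 astrocyte markers did not separate the media, with 458.8 CPM on PUCL@CNT1 and 919.5 CPM on PUCL in differentiation medium, against 465.8 CPM on PUCL@CNT1 and 467.5 CPM on PUCL in maintenance medium. Most counts of the mural list were Acta2, and Vim was the most counted NSPC marker, while Sox2 had 3879 counts on PUCL@CNT1 and 6301 on PUCL in differentiation medium, against 3989 on PUCL@CNT1 and 4219 on PUCL in maintenance medium. The part of these lists in the members' changes was not tested. In such bulk libraries, fewer cells of a type and less RNA per cell cannot be told apart.

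Single pairs of libraries were described by size, with a pair counted as different where its ratio reached 2-fold and the 95% bound closer to 1 exceeded 1.5-fold. Between the media on PUCL@CNT1, 2 members were higher (Eif1b and Farsb) and 8 lower (Eif2a, Eif2s3y, Eif2ak4, Eif4a2, Eif4e2, Eefsec, Dars and Iars), against 31% of all genes in either direction. On PUCL, 3 were higher (Eif2ak1, Eif2ak3 and Eif4e3) and 9 lower (against 15.3% of all genes lower; Eif2b1, Eif2b4, Eif2b5, Eif2d, Eif2s3y, Eif2ak4, Eif4enif1, Eefsec and Iars), against 31.3% in either direction. The members' shares of 12.2% and 14.6% lay below these, and members were counted more deeply than most genes. Where the mean count reached 300, 5 of 61 members (8.2%) on PUCL@CNT1 and 2 of 61 (3.28%) on PUCL passed the size rule, against 11.3% and 9.48% of such genes. Lower by size on both platforms were 4 members (Eif2ak4, Iars, Eif2s3y and Eefsec), against 3.53% of all genes, and 0 were higher on both, against 4.35%.

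**Figure D2:**
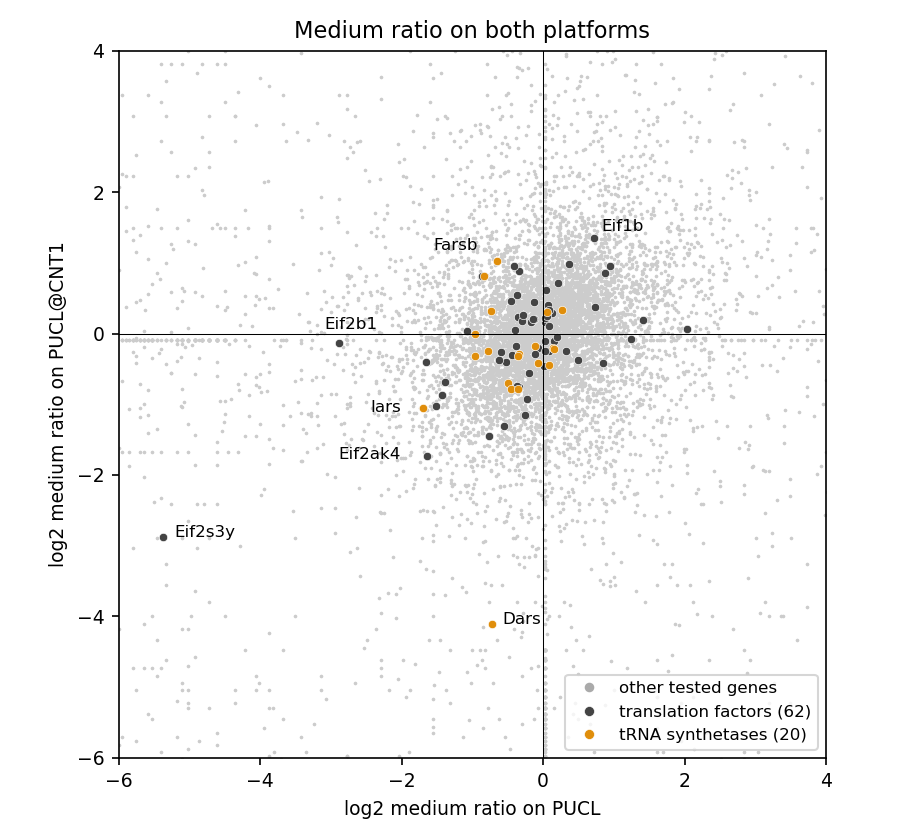
Log2 ratio of differentiation over maintenance medium on PUCL@CNT1 (y axis) against that on PUCL (x axis) for each tested gene, with translation factors in dark grey and tRNA synthetases in orange; other genes beyond the axis limits are not drawn. Eif2ak4 and Iars lie below 0 on both axes, while Dars and Eif2b1 are far below 0 on 1 platform each.

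Of the 4 eIF2 subunit genes, only Eif2s2 was called in the fit. Eif2s1, the alpha subunit that stress kinases phosphorylate, had 588.4 CPM on PUCL@CNT1 and 477.0 CPM on PUCL in differentiation medium, against 674.9 CPM on PUCL@CNT1 and 500.1 CPM on PUCL in maintenance medium. Its media overlapped, with a fitted log2 fold change of -0.13 (SE 0.19, edgeR adjusted p = 0.945). Eif2s3x, a gamma subunit gene, had 166.4 CPM on PUCL@CNT1 and 112.8 CPM on PUCL in differentiation medium, against 148.7 CPM on PUCL@CNT1 and 126.8 CPM on PUCL in maintenance medium, which also overlap.

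The Y-linked gamma subunit gene Eif2s3y had 14 counts on PUCL@CNT1 and 2 on PUCL in differentiation medium, against 100 on PUCL@CNT1 and 105 on PUCL in maintenance medium. It was lower by size on both platforms, with log2 ratios of -2.88 (-3.85 to -2.11) on PUCL@CNT1 and -5.37 (-8.75 to -3.80) on PUCL, but was not called in the fit (log2 -4.13, SE 1.71, edgeR adjusted p = 0.242). Ddx3y, another Y-linked gene, chosen after its values were seen, had 0 counts on PUCL@CNT1 and 1 on PUCL in differentiation medium and 0 on each platform in maintenance medium. Eif2s3x and Eif2s3y are close copies whose reads may have been split.

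The 5 subunits of eIF2B did not move together, and 0 of 5 were called in the fit. Eif2b1, of the regulatory part of the complex, had 155 counts on PUCL@CNT1 but 25 on PUCL in differentiation medium, against 160 on PUCL@CNT1 and 192 on PUCL in maintenance medium. The library on PUCL in differentiation medium thus stood apart from the other 3, with a log2 medium ratio of -0.14 (-0.46 to 0.19) on PUCL@CNT1 and -2.89 (-3.58 to -2.31) on PUCL. Eif2b1 overlaps Gtf2h3 in the RefSeq annotation, and Gtf2h3 had 543 to 596 counts in the 4 libraries.

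Eif2b5, the catalytic subunit, had 40.5 CPM on PUCL@CNT1 and 15 CPM on PUCL in differentiation medium, against 53.3 CPM on PUCL@CNT1 and 47.6 CPM on PUCL in maintenance medium, again lowest on PUCL in differentiation medium (fitted log2 -1.02, SE 0.495, edgeR adjusted p = 0.379). Eif2b4, a regulatory subunit, had 34.3 CPM on PUCL@CNT1 and 24.6 CPM on PUCL in differentiation medium, against 55.5 CPM on PUCL@CNT1 and 64.7 CPM on PUCL in maintenance medium. Eif2b2, also regulatory, lay the other way, with 109.1 CPM on PUCL@CNT1 and 155.9 CPM on PUCL in differentiation medium, against 60.7 CPM on PUCL@CNT1 and 85.1 CPM on PUCL in maintenance medium. Its media did not overlap, with a fitted log2 fold change of 0.86 (SE 0.315, edgeR adjusted p = 0.143), which missed the threshold.

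**Figure D3:**
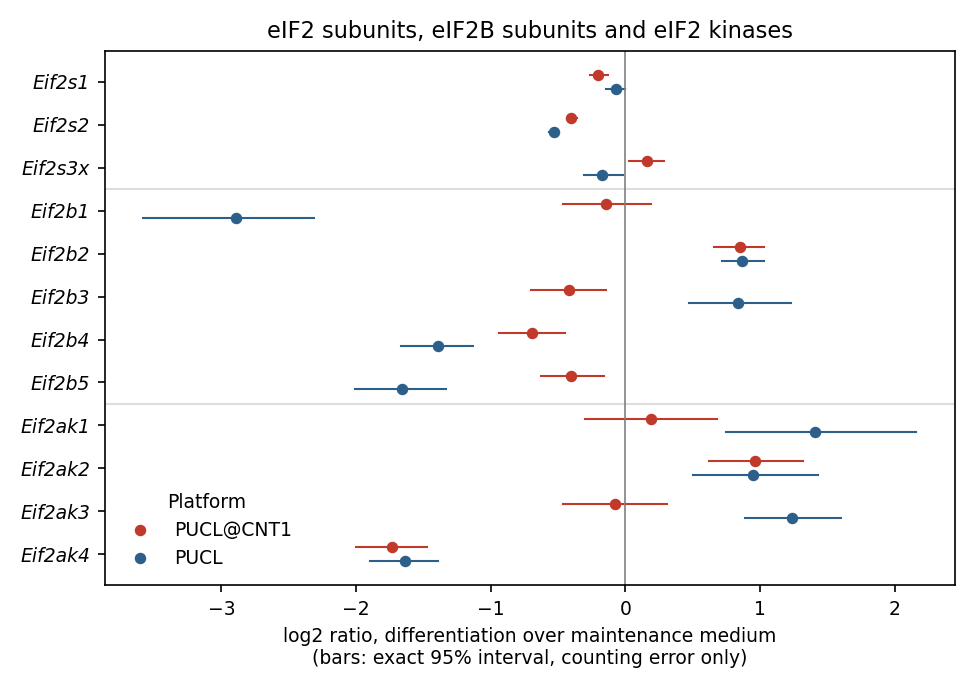
Log2 ratio of differentiation over maintenance medium for eIF2 subunits, eIF2B subunits and eIF2 kinases, on PUCL@CNT1 (red) and PUCL (blue); bars are exact 95% intervals of counting error in a pair of libraries. Eif2ak4 is near -1.7 on both platforms, and Eif2b1 lies at -0.14 on PUCL@CNT1 and -2.89 on PUCL.

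Among the 4 eIF2 kinases, Eif2ak4 was called lower and the other 3 were not called. Eif2ak2 (PKR), which responds to double-stranded RNA, had 32.5 CPM on PUCL@CNT1 and 17.9 CPM on PUCL in differentiation medium, against 16.6 CPM on PUCL@CNT1 and 9.25 CPM on PUCL in maintenance medium (fitted log2 0.96, SE 0.736, edgeR adjusted p = 0.758). Eif2ak3 (PERK), the sensor of stress in the endoplasmic reticulum, had 17.4 CPM on PUCL@CNT1 and 35.1 CPM on PUCL in differentiation medium, against 18.4 CPM on PUCL@CNT1 and 14.9 CPM on PUCL in maintenance medium, so that PUCL in differentiation medium was the highest library. Eif2ak1 (HRI), a heme-sensing kinase, had 80 counts on PUCL@CNT1 and 66 on PUCL in differentiation medium, against 66 on PUCL@CNT1 and 25 on PUCL in maintenance medium. It overlaps Aimp2, which had 420 to 635 counts per library.

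The 13 eIF3 subunits, which form the scaffold of the initiation complex, gave no call: 0 passed in the edgeR fit, 3 had an unadjusted p under 0.05, and the fitted log2 fold changes ran between -0.57 (Eif3b, edgeR adjusted p = 0.589) and 0.10 (Eif3h, edgeR adjusted p = 0.975), with a median of -0.06. Together they took 0.288% (0.284% to 0.292%) of counts on PUCL@CNT1 and 0.265% (0.261% to 0.269%) on PUCL in differentiation medium, against 0.394% (0.389% to 0.399%) on PUCL@CNT1 and 0.309% (0.305% to 0.313%) on PUCL in maintenance medium; these brackets are exact 95% binomial intervals. Both differentiation libraries lay below both maintenance libraries in this sum, but the single subunits were less uniform. Medium ratios were below 0 on both platforms for 5 of 13 subunits (38.5%, against 28.7% of all genes) and above 0 on both for 1. They had opposite signs for 7 (53.8%, against 41.7% of all genes).

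Of the 9 eIF4F and cap-binding factors, 0 were called and 3 had an unadjusted p under 0.05 in edgeR. Eif4e, the cap-binding protein, had 179.3 CPM on PUCL@CNT1 and 162.1 CPM on PUCL in differentiation medium, against 233.1 CPM on PUCL@CNT1 and 251.6 CPM on PUCL in maintenance medium (fitted log2 -0.51, SE 0.247, edgeR adjusted p = 0.385). Eif4a2, a helicase, had 168.5 CPM on PUCL@CNT1 and 219.0 CPM on PUCL in differentiation medium, against 372.8 CPM on PUCL@CNT1 and 261.7 CPM on PUCL in maintenance medium (fitted log2 -0.70, SE 0.241, edgeR adjusted p = 0.108). For both genes the media did not overlap, although neither passed the adjusted threshold. Eif4a1, a paralog of Eif4a2, had 770.6 CPM on PUCL@CNT1 and 819.9 CPM on PUCL in differentiation medium, against 940.0 CPM on PUCL@CNT1 and 893.5 CPM on PUCL in maintenance medium (fitted log2 -0.21, SE 0.172, edgeR adjusted p = 0.813). The copies are alike enough that reads may have been split between them.

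Eif4e3, a cap-binding paralog of Eif4e, was the member with the highest PUCL ratio. It had 48.3 CPM on PUCL@CNT1 and 69.6 CPM on PUCL in differentiation medium, against 45.9 CPM on PUCL@CNT1 and 17 CPM on PUCL in maintenance medium. The low library was PUCL in maintenance medium, and the log2 medium ratio was 0.07 (-0.16 to 0.31) on PUCL@CNT1 and 2.03 (1.73 to 2.35) on PUCL. Eif4e2, a repressive cap-binding homolog, had 10.5 CPM on PUCL@CNT1 and 12.1 CPM on PUCL in differentiation medium, against 29.0 CPM on PUCL@CNT1 and 20.6 CPM on PUCL in maintenance medium (fitted log2 -1.12, SE 0.771, edgeR adjusted p = 0.691). Eif4g1, the main scaffold of eIF4F, was not analysed here.

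The 4E-binding proteins, which hold Eif4e away from the scaffold until mTORC1 phosphorylates them, gave 0 calls among 4. Eif4ebp1 had 316.2 CPM on PUCL@CNT1 and 205.9 CPM on PUCL in differentiation medium, against 229.7 CPM on PUCL@CNT1 and 282.2 CPM on PUCL in maintenance medium, so that the media overlapped and the fitted log2 fold change was 0.00 (SE 0.24, edgeR adjusted p = 1). Eif4ebp2, the main form in brain, had 205.5 CPM on PUCL@CNT1 and 180.3 CPM on PUCL in differentiation medium, against 134.8 CPM on PUCL@CNT1 and 175.0 CPM on PUCL in maintenance medium (fitted log2 0.33, SE 0.263, edgeR adjusted p = 0.79). Eif4enif1, which brings Eif4e into the nucleus, had the lowest fitted value of the class, -1.16 (SE 0.945, edgeR adjusted p = 0.794).

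Of the other Eif genes, Eif5a, the hypusine-bearing factor that helps stalled ribosomes on, had 1181.8 CPM on PUCL@CNT1 and 1379.4 CPM on PUCL in differentiation medium, against 1222.6 CPM on PUCL@CNT1 and 1209.4 CPM on PUCL in maintenance medium (fitted log2 0.07, SE 0.159, edgeR adjusted p = 0.953). Its paralog Eif5a2 had fitted log2 0.09 (SE 0.575, edgeR adjusted p = 1). Eif6, which keeps the large ribosomal subunit from joining too early, had 112.2 CPM on PUCL@CNT1 and 86.3 CPM on PUCL in differentiation medium, against 58.1 CPM on PUCL@CNT1 and 114.8 CPM on PUCL in maintenance medium. The media overlapped for Eif6, and its ratios had opposite signs on the platforms. Eif4a3, a core protein of the exon junction complex, had fitted log2 -0.18 (SE 0.24, edgeR adjusted p = 0.94).

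The 8 genes classed by symbol as elongation factors, Eef1e1 among them, gave 0 calls. Eef1a1, which delivers aminoacyl-tRNA to the ribosome, had 1149.9 CPM on PUCL@CNT1 and 881.5 CPM on PUCL in differentiation medium, against 986.1 CPM on PUCL@CNT1 and 861.5 CPM on PUCL in maintenance medium (fitted log2 0.13, SE 0.168, edgeR adjusted p = 0.935). Eef2, the translocation factor, had 666.0 CPM on PUCL@CNT1 and 493.6 CPM on PUCL in differentiation medium, against 528.6 CPM on PUCL@CNT1 and 462.2 CPM on PUCL in maintenance medium (fitted log2 0.21, SE 0.192, edgeR adjusted p = 0.842). The 5 core genes (Eef1a1, Eef1b2, Eef1d, Eef1g and Eef2) had fitted log2 fold changes of -0.01 to 0.21. Eef1a2, the form that replaces Eef1a1 in mature neurons, had only 43 to 56 counts per library.

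Eefsec, which delivers selenocysteine, was lower by size on both platforms, with 71 counts on PUCL@CNT1 and 61 on PUCL in differentiation medium, against 137 on PUCL@CNT1 and 179 on PUCL in maintenance medium. The media did not overlap, but the fit did not call it (log2 -1.28, SE 0.792, edgeR adjusted p = 0.602). Eef2k, the kinase that inhibits Eef2, had 39 counts on PUCL@CNT1 and 41 on PUCL in differentiation medium, against 28 on PUCL@CNT1 and 25 on PUCL in maintenance medium, a difference not detectable at this depth (edgeR adjusted p = 0.99). Eef2kmt, which methylates Eef2, overlaps Alg1, so its level is uncertain. Eef2kmt had 202 counts on PUCL@CNT1 and 236 on PUCL in differentiation medium, against 96 on PUCL@CNT1 and 186 on PUCL in maintenance medium. Alg1 had 203 on PUCL@CNT1 and 236 on PUCL in differentiation medium, against 96 on PUCL@CNT1 and 138 on PUCL in maintenance medium, so the pair differed by at most 1 count in every library but PUCL in maintenance medium.

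**Figure D4:**
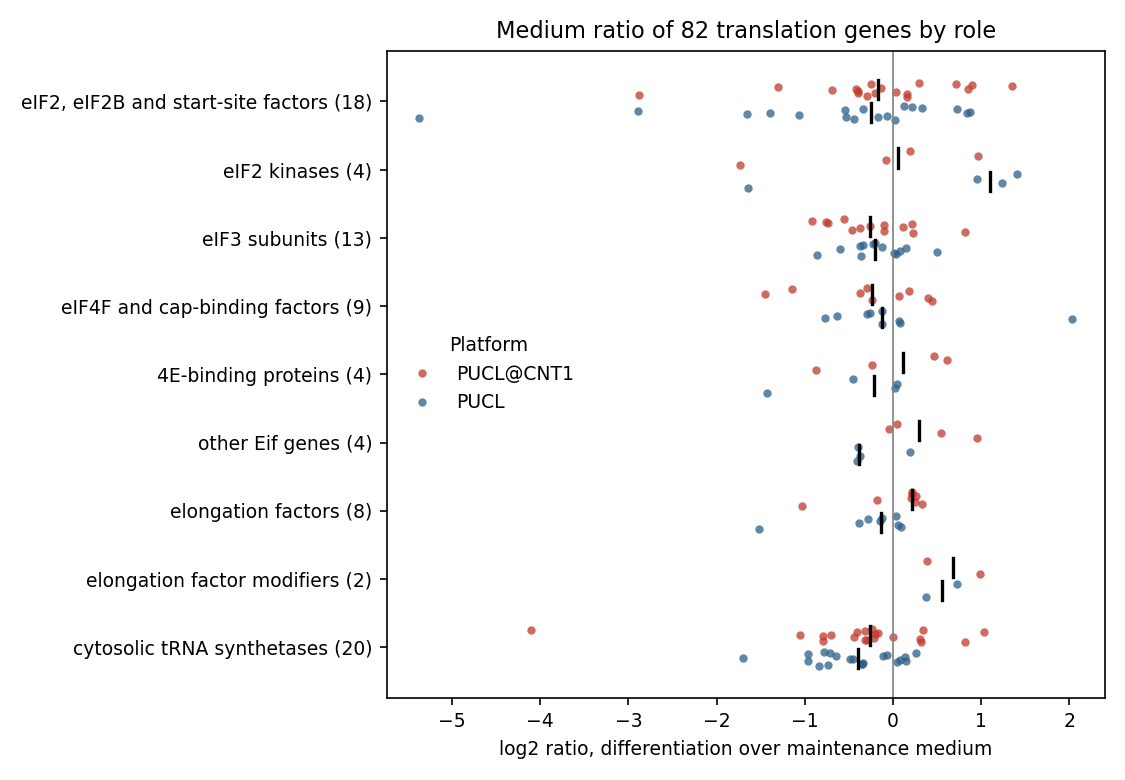
Log2 ratio of differentiation over maintenance medium for each of the 82 members by role, on PUCL@CNT1 (red) and PUCL (blue); each point is 1 gene and each black tick the median of the role on that platform. Synthetase medians lie at -0.27 on PUCL@CNT1 and -0.40 on PUCL, and elongation factor medians at 0.22 on PUCL@CNT1 and -0.14 on PUCL.

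The 20 cytosolic tRNA synthetases had mostly lower values in differentiation medium. In the fit, 17 of 20 were below 0, against 49.8% of all genes, with a median log2 fold change of -0.28, against 0 for all genes. Called lower were 2 of 20 (Iars and Kars), against 1.02% of all genes. In a fit without the platform term and PUCL in differentiation medium, 12 of 20 were below 0 (median -0.14), against 51.6% of all genes. Without that term and PUCL@CNT1 in maintenance medium, 13 were below 0 (-0.18), against 46.2%. Leaving out PUCL in maintenance medium instead gave 16 (-0.44), against 45.7%. Leaving out PUCL@CNT1 in differentiation medium gave 18 (-0.51), against 52.6%. On both platforms at once, 12 of 20 had ratios below 0 and 2 had ratios above 0 (60% and 10%), while over all genes these shares were 28.7% and 29.6%. As a share of the library, the synthetases summed to 0.288% (0.284% to 0.292%) on PUCL@CNT1 and 0.24% (0.236% to 0.244%) on PUCL in differentiation medium, against 0.379% (0.374% to 0.384%) on PUCL@CNT1 and 0.332% (0.327% to 0.336%) on PUCL in maintenance medium. Kars alone gave 4074 of the 19730 summed synthetase counts on PUCL@CNT1 and 4392 of 15788 on PUCL in differentiation medium. In maintenance medium it gave 6202 of 22876 on PUCL@CNT1 and 6296 of 21560 on PUCL, so these sums lean on that gene. Summed over all 82 members, the share was 1.96% on PUCL@CNT1 and 1.7% on PUCL in differentiation medium, against 2.25% on PUCL@CNT1 and 2% on PUCL in maintenance medium. These shares, like those of eIF3, are of total counts with no TMM scaling. TMM factors were 0.97 on PUCL@CNT1 in differentiation medium and 1.01 on PUCL in maintenance medium, so the order of 1.96% and 2% depends on scaling.

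Besides Iars and Kars, several synthetases lay lower without passing the adjusted threshold. Eprs, which loads both glutamate and proline, had 230.3 CPM on PUCL@CNT1 and 143.1 CPM on PUCL in differentiation medium, against 288.1 CPM on PUCL@CNT1 and 281.1 CPM on PUCL in maintenance medium (fitted log2 -0.65, SE 0.242, edgeR adjusted p = 0.159). Lars, the leucine enzyme, had 129.5 CPM on PUCL@CNT1 and 119.9 CPM on PUCL in differentiation medium, against 223.6 CPM on PUCL@CNT1 and 163.3 CPM on PUCL in maintenance medium (fitted log2 -0.62, SE 0.271, edgeR adjusted p = 0.293). The media did not overlap for either. Aars, the alanine enzyme, had 79.7 CPM on PUCL@CNT1 and 54.0 CPM on PUCL in differentiation medium, against 94.3 CPM on PUCL@CNT1 and 92.8 CPM on PUCL in maintenance medium (fitted log2 -0.51, SE 0.346, edgeR adjusted p = 0.672).

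At the other end, Cars, the cysteine enzyme, had the highest fitted value of the class, 0.30 (SE 0.307, edgeR adjusted p = 0.888). Gars, the glycine enzyme, had 260.5 CPM on PUCL@CNT1 and 192.4 CPM on PUCL in differentiation medium, against 292.8 CPM on PUCL@CNT1 and 207.9 CPM on PUCL in maintenance medium, with PUCL@CNT1 the higher in both media. Dars, the aspartate enzyme, had 5 counts on PUCL@CNT1 and 61 on PUCL in differentiation medium, against 89 on PUCL@CNT1 and 103 on PUCL in maintenance medium. The library on PUCL@CNT1 in differentiation medium stood apart, with a log2 medium ratio of -4.11 (-5.90 to -2.97) there and -0.72 (-1.21 to -0.26) on PUCL, and the fit made no call (edgeR adjusted p = 0.607).

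**Figure D5:**
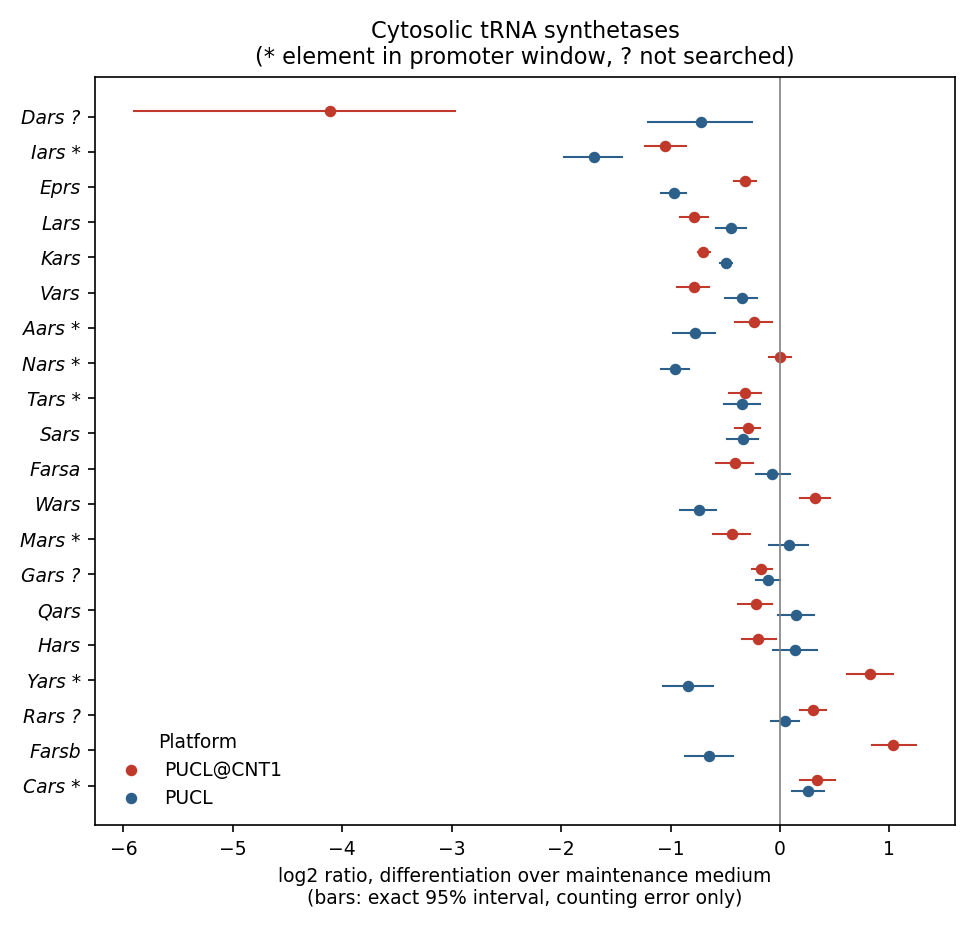
Log2 ratio of differentiation over maintenance medium for the 20 synthetases, ordered by fitted fold change, on PUCL@CNT1 (red) and PUCL (blue); bars are exact 95% intervals of counting error, an asterisk marks a promoter window with TGATGCAA and a question mark one that was not searched. Iars is below 0 on both platforms, and Farsb, Yars and Wars are above 0 on PUCL@CNT1 and below 0 on PUCL.

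Many synthetase genes are known targets of Atf4, the transcription factor made when eIF2 is phosphorylated, which binds C/EBP-ATF response elements. RefSeq promoter windows (GRCr8 assembly, 250 bases before to 50 after the start) were matched for 69 of the 82 members and searched on both strands for TGATGCAA, the letters of such an element, and for CACGTG, an E-box. TGATGCAA was in 7 of 17 synthetase windows (41.2%), in 1 of 52 windows of other members (1.92%) and in 0.795% of all 33469 windows. These 33469 are every window of the set, whether or not its gene was tested here. CACGTG was in 5 of 17 synthetase windows (29.4%), in 10 of 52 windows of other members (19.2%) and in 6.42% of all windows. A match is a description of the letters and not a site in use. Of the 7 synthetase windows with the element, 6 are shown around the match, together with that of Eif2s2, on the strand of the gene and with the element in capitals (TTGCATCA is its reverse complement).
Iars, chr17:15193658-15193687, minus strand: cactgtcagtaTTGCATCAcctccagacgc
Cars, chr1:208225334-208225363, minus strand: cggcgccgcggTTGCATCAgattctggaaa
Mars, chr7:65023752-65023781, minus strand: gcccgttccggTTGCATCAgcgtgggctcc
Tars, chr2:62114811-62114840, minus strand: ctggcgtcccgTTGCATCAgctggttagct
Nars, chr18:60275778-60275807, minus strand: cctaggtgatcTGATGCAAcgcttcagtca
Yars, chr5:146820183-146820212, plus strand: cggagctacgagctcagcTGATGCAAcctg
Eif2s2, chr3:163855588-163855617, minus strand: ttccctttcgcTGATGCAAgagcctagcgc

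Synthetases with and without the element had median fitted log2 fold changes of -0.33 over the 7 with it and -0.28 over the 10 without it. By platform, the median medium ratios were -0.24 with it and -0.30 without it on PUCL@CNT1, and -0.78 with it and -0.40 without it on PUCL. The median difference of PUCL@CNT1 over PUCL was 0.56 with it and 0.30 without it in differentiation medium, and 0.10 with it and 0.15 without it in maintenance medium, and no contrast between these groups was tested. Of the 2 synthetases called lower, the Iars window held both motifs and the Kars window neither. Their 120 bases before the start are shown for that contrast, with motifs in capitals.
Iars, chr17:15193653-15193772, minus strand: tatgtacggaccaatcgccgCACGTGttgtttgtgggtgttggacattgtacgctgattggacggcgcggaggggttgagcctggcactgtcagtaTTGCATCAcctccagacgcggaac
Kars, chr19:56886084-56886203, minus strand: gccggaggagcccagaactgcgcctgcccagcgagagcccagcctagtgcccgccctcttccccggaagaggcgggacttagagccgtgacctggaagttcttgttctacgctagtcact

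Between platforms, no member passed the test. In the edgeR fit, 0 of 82 members were called for PUCL@CNT1 over PUCL, against 0.456% of all genes (22 higher and 26 lower), and 4 (4.88%) had an unadjusted p under 0.05 (Eif1a, Hars, Iars and Nars), against 6.95% of all genes; DESeq2 and limma-voom also called 0. The median fitted log2 difference of the members was 0.21, with 61 of 82 above 0, against a median of 0 for all genes, of which 50.1% were below 0. Without PUCL in differentiation medium and the medium term, the members' median was 0.08, against 0.06 for all genes. Without PUCL@CNT1 in maintenance medium and that term it was 0.14, against -0.06 for all genes. Leaving out that term and PUCL in maintenance medium gave 0.3, against 0.07 for all genes. Leaving out that term and PUCL@CNT1 in differentiation medium gave 0.25, against -0.07 for all genes. Fitted values of 13 of 13 eIF3 subunits and 16 of 20 synthetases were above 0, with medians of 0.19 and 0.29, and none of these was a call. For eIF3 the single pairs were less uniform, with 8 of 13 above 0 in differentiation medium (median 0.09) and 12 of 13 in maintenance medium (median 0.29). The synthetase median was 0.11, with 12 of 20 above 0, without PUCL in differentiation medium and the medium term, and 0.12, with 14 of 20 above 0, without PUCL@CNT1 in maintenance medium and that term. Without that term, it was 0.54 without PUCL in maintenance medium and 0.39 without PUCL@CNT1 in differentiation medium, each with 17 of 20 above 0.

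Eif1a, which scans for the start codon together with Eif1, was higher by size in both media. It had 59.6 CPM on PUCL@CNT1 and 19.2 CPM on PUCL in differentiation medium, and 36.5 CPM on PUCL@CNT1 and 16.5 CPM on PUCL in maintenance medium. The platforms did not overlap, with a fitted log2 difference of 1.39 (SE 0.529, edgeR adjusted p = 0.414), and the close copy Eif1ax could share its reads. Eif4ebp3, a 4E-binding protein, was lower by size in both media, with 9.63 CPM on PUCL@CNT1 and 23.4 CPM on PUCL in differentiation medium, and 11.4 CPM on PUCL@CNT1 and 23.0 CPM on PUCL in maintenance medium (fitted log2 -1.15, SE 0.801, edgeR adjusted p = 0.961). Over all genes, 2.52% were higher and 3.17% lower by size in both media.

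More members differed by size between the platforms in differentiation medium than in maintenance medium. In differentiation medium 11 were higher on PUCL@CNT1, against 15.2% of all genes, and 3 were lower, against 30.8% of all genes in either direction. In maintenance medium 4 were higher and 1 lower, against 26.1%. Where the mean count reached 300, 5 of 61 members (8.2%) passed in differentiation medium and 0 of 61 in maintenance medium, against 8.18% and 3.84% of such genes. Among the synthetases, Farsb, Iars, Nars and Yars were higher and Dars lower on PUCL@CNT1 in differentiation medium, and 0 of 20 passed the size rule in maintenance medium, with median log2 differences of 0.37 and 0.08 in that order. Nars, the asparagine enzyme, had 234.8 CPM on PUCL@CNT1 and 112.6 CPM on PUCL in differentiation medium, and 234.8 CPM on PUCL@CNT1 and 219.0 CPM on PUCL in maintenance medium, so that PUCL in differentiation medium was the low library. In differentiation medium, the 5 core elongation factors were also higher on PUCL@CNT1, by log2 0.32 to 0.53, against -0.04 to 0.19 in maintenance medium, and 0 of 5 passed the size rule.

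The platform difference itself changed between the media by the same sizes in 13 members, 9 upwards (15.4% of all genes) and 4 downwards, against 29.5% of all genes in either direction. With 1 library per group this change has no replicate check. Farsb, the beta subunit of the phenylalanine enzyme, had 99.7 CPM on PUCL@CNT1 and 43.0 CPM on PUCL in differentiation medium, and 48.7 CPM on PUCL@CNT1 and 67.6 CPM on PUCL in maintenance medium. Yars, the tyrosine enzyme, had 83.9 CPM on PUCL@CNT1 and 38.7 CPM on PUCL in differentiation medium, and 47.5 CPM on PUCL@CNT1 and 69.1 CPM on PUCL in maintenance medium. In both genes PUCL@CNT1 was the higher platform in differentiation medium and the lower in maintenance medium. Farsa, the partner subunit of Farsb, did not share that order, with 80.9 CPM on PUCL@CNT1 and 102.9 CPM on PUCL in differentiation medium, and 107.9 CPM on PUCL@CNT1 and 107.7 CPM on PUCL in maintenance medium.

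Calls among genes around the pathway are given by list. Of 22 tested genes of mTORC1 and cap-dependent control, 1 (4.55%, against 2.81% of all genes) rose with the medium: Ddit4, an mTORC1 inhibitor, with 220.1 CPM on PUCL@CNT1 and 310.7 CPM on PUCL in differentiation medium, against 45.6 CPM on PUCL@CNT1 and 107.7 CPM on PUCL in maintenance medium (log2 1.89, SE 0.276, edgeR adjusted p = 5.88e-07). The media did not overlap, and without PUCL@CNT1 in maintenance medium and the platform term the call was lost (log2 1.30, edgeR adjusted p = 0.322). In the same list 2 genes (9.09%, against 0.456% of all genes) were called higher on PUCL@CNT1. Rps6, a ribosomal protein, had 1710.5 CPM on PUCL@CNT1 and 942.6 CPM on PUCL in differentiation medium, and 1683.3 CPM on PUCL@CNT1 and 1222.9 CPM on PUCL in maintenance medium (log2 0.66, SE 0.158, edgeR adjusted p = 0.0258). Pabpc1, the poly(A)-binding protein, was higher by log2 0.67 (SE 0.17, edgeR adjusted p = 0.0457). Neither was called without the medium term (edgeR adjusted p = 1 for each), nor without that term and any 1 of the 4 libraries (lowest edgeR adjusted p = 0.713 for Rps6 and 0.558 for Pabpc1).

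Of 25 tested genes of the amino acid and eIF2 stress response, 1 (4%) rose with the medium, the cystine transporter gene Slc7a11 (log2 2.03, SE 0.424, edgeR adjusted p = 0.00107), and 0 were called between platforms. Without the platform term Slc7a11 was still called (edgeR adjusted p = 0.00606), and it lost its call without that term and PUCL@CNT1 in differentiation medium (edgeR adjusted p = 0.0765), PUCL@CNT1 in maintenance medium (0.0646) or PUCL in maintenance medium (0.365). Atf4 had 386.7 CPM on PUCL@CNT1 and 228.1 CPM on PUCL in differentiation medium, against 593.1 CPM on PUCL@CNT1 and 375.3 CPM on PUCL in maintenance medium. It was lower in differentiation medium on each platform, but the media overlapped across platforms. Atf4 missed the threshold for medium (log2 -0.67, SE 0.206, edgeR adjusted p = 0.0559). Asns, the Atf4 target that makes asparagine, had 89.5 CPM on PUCL@CNT1 and 46.1 CPM on PUCL in differentiation medium, against 76.2 CPM on PUCL@CNT1 and 75.4 CPM on PUCL in maintenance medium (log2 -0.24, SE 0.365, edgeR adjusted p = 0.951). In the lists of 16 tested termination, recycling and multisynthetase scaffold genes and of 23 tested mitochondrial translation genes, 0 were called for medium and 0 for platform, with 3 and 0 genes at an unadjusted edgeR p under 0.05 for medium and 1 in each for platform. At that threshold for medium, the stress response list held 8 of 25 genes and the mTORC1 list 4 of 22, against 12.1% of all genes. For platform they held 1 and 4 genes, against 6.95% of all genes.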

How the data were processed

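The authors deposited raw counts per gene symbol, whole numbers with no normalization, for each of the 4 libraries. The build was rn6 and the tools Bowtie2 and bedtools, per the submitters' processing notes; versions, annotation and strand setting are not given in the sources used here, so overlapping and antisense genes could not be told apart. Entries of 1 symbol were summed (17048 entries, 16881 symbols). Genes reaching 10 counts in any library were kept, scaled by TMM and fitted in edgeR 4.0.16 (R 4.3.3) by the quasi-likelihood F test with platform and medium as additive terms (1 residual and 87.2 prior degrees of freedom). The p-values were adjusted by Benjamini-Hochberg over all 10516 genes at 0.05. The SE was derived from the fold change and the F statistic. Ratios of single pairs used a prior count of 0.5, with exact 95% Clopper-Pearson intervals and no test. Depth was 6035848 to 6855984 counts per library, and reads carry no molecular identifiers. Members with values were those called, those past the size rule in both pairs, the extremes of each role and a set of regulated members; others named were chosen after their values were seen. The code was tested on simulated data. Members, lists and tests were chosen with earlier results of these data known. DESeq2 1.42.0 and limma 3.58.1 gave alternatives. The sequence of 1 promoter window is not reported here.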

Additional observations from a re-analysis of the deposited data

Results flagged for a closer look

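In 9 members the medium ratio ran in opposite directions on the 2 platforms and the platform difference changed by at least 2-fold between the media. Both held for 11% of members, against 20.8% of all genes. With 1 library per group, the difference was not tested. The values are log2: the change of the platform difference, then the medium ratio on PUCL@CNT1 and on PUCL. Farsb changed by 1.69 (1.03 and -0.65), Eif3l, an eIF3 subunit gene, by 1.67 (0.81 and -0.86) and Yars by 1.66 (0.82 and -0.84). Eif6 changed by 1.36 (0.95 and -0.41), Eif1ax, a start-codon scanning factor, by 1.24 (0.89 and -0.34), Eif2d, a non-canonical initiation factor, by 1.11 (0.03 and -1.07) and Wars, the tryptophan enzyme, by 1.06 (0.32 and -0.74). On PUCL@CNT1 the 95% counting intervals of Eif2d (-0.2 to 0.26) and Eif2ak3 (-0.46 to 0.31) include 0, so these 2 had no direction there beyond counting error. The change was -1.31 for Eif2ak3 (-0.08 and 1.24) and -1.26 for Eif2b3, an eIF2B subunit gene (-0.42 and 0.84). Yars overlaps S100pbp, which had 223 counts on PUCL@CNT1 and 348 on PUCL in differentiation medium, and 515 on PUCL@CNT1 and 513 on PUCL in maintenance medium; its part in the Yars values was not tested.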

How the results depend on the processing

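No pairing by replicate number was possible because each group is 1 library. Platform is already a term in the test of medium, which takes the platforms as repeats of the medium change. The 1 residual degree of freedom is therefore the change of the platform difference between the media and not a spread of replicates. Fits without 1 library also leave out the other term, since none of the residual degrees of freedom would remain. For medium, 296 genes and 5 members were called. The genes came to 141 with a mean of 100 or more counts, 170 with DESeq2, 176 without the platform term and 25 to 263 without 1 library and that term. The members came to 3 with DESeq2 size factors, 3 with all genes that had any count, 2 with a mean of 100 or more counts, 1 with DESeq2, 2 without the platform term and 0 to 2 without 1 library and that term. For platform, 48 genes were called, against 18 with DESeq2 size factors, 28 with total counts, 25 with any count, 0 with a mean of 100 or more counts, 87 with limma-voom, 0 without the medium term and 0 to 27 without 1 library and that term; the members called were 0 in each. The causes were not tested beyond what each setting changes. The share of medium calls that were higher was 63.9%, and 53.3% with total counts. Of platform calls 45.8% were higher, 33.3% with DESeq2 size factors, 53.3% with ribosomal RNA entries left out, 60.5% with DESeq2 and 57.5% with limma-voom, so the majority depends on the setting. Of the 20 synthetases, 16 or 17 were below 0 for medium under the 4 scalings tried. Of the 60 alternative values of the 5 called members for medium, 31 lost the call and none changed sign. Over all named members, 503 values stayed on their side of the threshold, most of them from members not called. Among the 40 named members not called, 28 of 474 values changed sign, in 15 genes. The alternatives for the change of the platform difference were added after the data were seen, and its count stayed at 13.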
